A study of Mus musculus with 21 samples.

Results

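The 10 genes described here encode collagens and other matrix proteins, and were measured in bone marrow-derived macrophages of the mouse. They were chosen as a list of symbols matched in each of 2 deposited tables, and all 10 were found among 50645 genes of the fatty acid table and 50644 genes of the Western diet table. They are the fibrillar collagen genes Col1a1, Col1a2 and Col3a1, the basement membrane collagen genes Col4a1, Col4a2 and Col18a1, the adhesive glycoprotein genes Fn1 and Tgfbi, and the matricellular genes Sparc and Thbs1. The cultures were marrow cells of C57Bl6/J donors, grown into macrophages in RPMI-1640 with medium conditioned by L929, a fibroblast-like cell line. Donor mice had been kept on standard chow or on a high-fat Western diet with added sugar and cholesterol, and the labels give 24 weeks both for the diet and for the age of the donors. The fatty acid table held 12 libraries of chow donors in 4 groups of 3: no stimulus (called untreated), lipopolysaccharide (LPS) alone, fatty acid and later LPS, and fatty acid together with TAK242 and later LPS. Fatty acid was given at 10 mM, as palmitic and oleic acid at 1 to 3, for the first 4 days, and TAK242, an inhibitor of the LPS receptor TLR4, at 200 nM over the same days. Both were washed off, and LPS was added on day 7 at 100 ng/ml for 24 h. The Western diet table held 9 libraries: untreated chow cultures with replicate numbers 4 to 6, and cultures labelled Western diet and Western diet with LPS, 3 of each. No group given here had fatty acid or TAK242 without LPS, or TAK242 with LPS and no fatty acid. The labels do not say whether a replicate was an animal or a culture, so each p-value below measures the spread between these libraries, which may be technical.

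Extracellular matrix is the protein mesh outside cells. Fibrillar collagens (types I and III) form its tensile fibres, type IV collagen forms the sheet of basement membranes, and adhesive glycoproteins such as fibronectin tie cells to both. Fibroblasts and other stromal cells are the main makers of fibrillar collagen in most tissues. Macrophages are better known for releasing signals that act on those cells, for degrading and taking up matrix, and for making certain matrix proteins themselves, fibronectin, thrombospondin 1 and the TGF-beta-induced protein among them.

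The matrix genes rose with LPS, and the LPS level was lower after fatty acid. With LPS alone 9 of 10 members were higher than in untreated cultures, where 13.8% of all 10476 genes tested were called higher and 47.9% lower (limma on log2(value + 1), Benjamini-Hochberg adjusted p under 0.05). All 10 members reached the filter of a value of at least 1 in 3 libraries in that table. Col4a1 and Col4a2 reached 1 only in libraries given LPS alone or TAK242, so the filter admitted them through the groups where they were high. The counts of members called include them. With fatty acid before LPS, 9 of 10 were lower than with LPS alone, against 15.3% of all genes called lower and 21.8% higher. When TAK242 accompanied the fatty acid, 5 of 10 were higher than with fatty acid and LPS, against 3.01% of all genes called higher and 1.68% lower. With 1 library left out that number was 1 to 3, and the call of Col18a1 held in all 6 such fits. Tgfbi stood apart from the other 9, since it was higher than in untreated cultures both with LPS alone and with fatty acid and LPS, and no group had fatty acid alone.

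**Figure D1:**
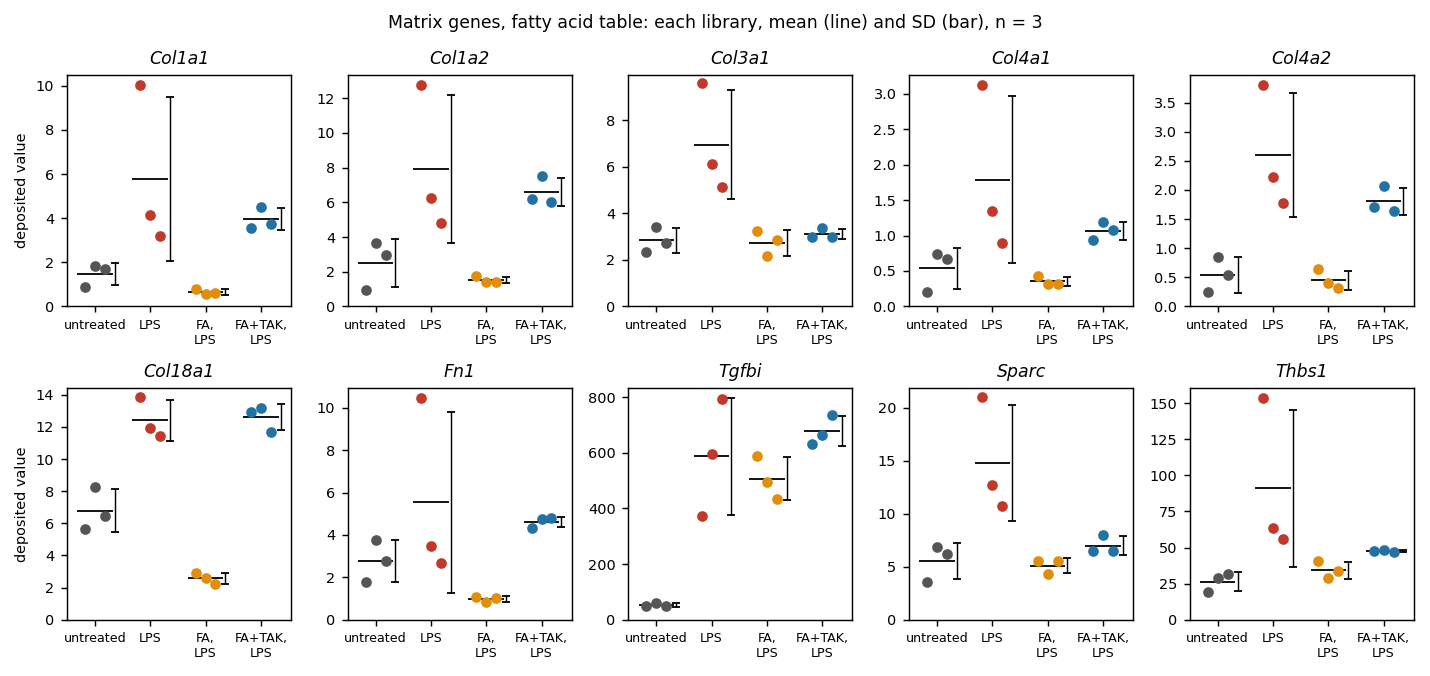
Deposited values of the 10 matrix genes in each library of the fatty acid table (vertical axes, linear, starting at 0), with points for libraries, a line for the mean and a bar for the SD (n = 3). FA stands for fatty acid and TAK for TAK242. LPS replicate 1 was the highest LPS library for 9 members, with Col1a1 at 10.0 and Thbs1 at 154, and the lowest LPS library for Tgfbi, at 374.

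Levels are given in the deposited unit, which the sources used here do not name, and library sums of that unit ran from 321532 to 386023 over the 12 libraries of the fatty acid table and from 327210 to 385061 over the 9 of the Western diet table. Summed levels of 10 macrophage markers, Lyz2, Cd68 and Adgre1 among them, lay between 8842 and 10869.5 in the fatty acid table and between 5891 and 15463.5 in the Western diet table, and Lyz2 made up most of each sum. Of the 8 tested, 5 rose and 1 fell with LPS, beside 13.8% of all genes called higher and 47.9% lower. Adgre1 read 344.9 to 367.5 in untreated libraries and 1048 to 1439 with LPS, and Cd68 read 1158 to 1221 and 510.5 to 576.2. The LPS-induced chemokine gene Ccl5 followed the labels there, at 0.419 to 0.645 in untreated libraries and 3102 to 7141 in the 9 libraries given LPS. It did not in the Western diet table: the libraries labelled Western diet without LPS read 7846, 13.7 and 10973, and those labelled Western diet with LPS read 0.463, 10.5 and 6905. LPS replicate 1 of the fatty acid table also stood apart in summed markers of other blood cells. Megakaryocyte markers summed to 11.2 where the other 11 libraries had 0.826 to 3.17, and neutrophil markers to 383.9 where the other LPS libraries had 171.5 and 120.1. These sums rested on few genes. Of the 9 megakaryocyte markers 1 read at least 1 in that library and 4 were at 0. Of the 10 neutrophil markers 3 read at least 1 and 5 were at 0, while in each of the other LPS libraries 5 read at least 1. The part of such cells in the results was not tested. Values without LPS replicate 1 are given for Col4a1, Fn1 and Thbs1. For other members the smallest log2 change with LPS when 1 library was left out was 0.93 for Col1a1 and 0.96 for Col1a2. It was 0.80 for Col3a1, 0.97 for Col4a2 and 0.99 for Sparc. The smallest change after fatty acid was -1.48, -1.36, -0.83, -1.05 and -1.06, in the same order. All of these were still called.

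Among the fibrillar collagens, Col1a1 (chromosome 11, 94936224 to 94953042, plus strand) and Col1a2 (chromosome 6, 4504814 to 4541544, plus strand) encode the chains that assemble into type I collagen. Col1a1 read 0.887, 1.82 and 1.71 in the untreated libraries, 10.0, 4.13 and 3.19 with LPS, 0.800, 0.570 and 0.612 with fatty acid and LPS, and 3.57, 4.51 and 3.75 with fatty acid, TAK242 and LPS. The lowest LPS library stood above the highest untreated one, all fatty acid libraries stood below every untreated one, and the TAK242 libraries lay inside the LPS range. Col1a1 rose with LPS from 1.47 ± 0.510 to 5.78 ± 3.71 (SD, n = 3), a log2 change of 1.35 ± 0.30 (standard error, adjusted p = 0.00230). It was lower by a log2 change of -1.90 after fatty acid (adjusted p = 0.00127) and higher by 1.57 with TAK242 than without it (adjusted p = 0.0204).

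Col1a2 read 0.969, 3.64 and 2.96 in untreated libraries, 12.8, 6.22 and 4.80 with LPS, 1.74, 1.40 and 1.41 with fatty acid and LPS, and 6.21, 7.50 and 6.04 with TAK242 added. Its groups were ordered as for Col1a1, except that the fatty acid libraries fell inside the untreated range. The log2 changes were 1.33 with LPS (adjusted p = 0.00543), -1.73 after fatty acid (adjusted p = 0.00342) and 1.59 with TAK242 (adjusted p = 0.0315).

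Col3a1 (chromosome 1, 45311538 to 45349706, plus strand) encodes type III collagen, which forms fine fibres beside type I. It read 2.35, 3.42 and 2.73 in untreated libraries, 9.60, 6.13 and 5.15 with LPS, 3.25, 2.15 and 2.83 with fatty acid and LPS, and 2.97, 3.35 and 3.00 with TAK242 added. The LPS libraries were the highest and did not overlap any other group, while the other 3 groups overlapped one another. Col3a1 rose by 1.02 on the log2 scale with LPS (adjusted p = 0.000749) and was lower by a log2 change of -1.06 after fatty acid (adjusted p = 0.00234). TAK242 made a difference of 0.14 (95% interval -0.28 to 0.56, adjusted p = 0.694), so Col3a1 with TAK242 stayed below LPS alone by a log2 change of -0.92 (adjusted p = 0.0293).

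The basement membrane collagen Col18a1 (chromosome 10, 77052178 to 77166548, minus strand) encodes type XVIII collagen, whose C-terminal fragment is endostatin, an inhibitor of vessel growth. It read 5.64, 8.24 and 6.42 in untreated libraries, 13.9, 11.9 and 11.5 with LPS, 2.92, 2.61 and 2.22 with fatty acid and LPS, and 12.9, 13.2 and 11.7 with TAK242 added. Its replicates were close together, the fatty acid libraries all lay under the lowest untreated one, and the TAK242 libraries lay inside the LPS range. Col18a1 rose from 6.77 ± 1.34 to 12.4 ± 1.26 with LPS, a log2 change of 0.80 (standard error 0.13, adjusted p = 0.000287). After fatty acid it was lower than with LPS alone by a log2 change of -1.91 (adjusted p = 3.31e-05) and lower than in untreated cultures by -1.11 (adjusted p = 2.48e-05). With TAK242 it differed from LPS alone by 0.021, with a 95% interval of -0.26 to 0.31.

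Col3a1 and Col18a1 lay at opposite ends of the collagens in the difference that TAK242 made, and the 250 bases before their start sites are shown for that reason. RefSeq (GRCm38.p6) gave such a window for 7 of the 10 members. Motifs on both strands were the TATA box TATAAA, the CCAAT box CCAAT, the GC box GGGCGG and the AP-1 site TGANTCA. Each sequence reads 5′ to 3′ towards the gene, and capitals mark a match on either strand.
Col3a1, chr1:45311288-45311537, plus strand: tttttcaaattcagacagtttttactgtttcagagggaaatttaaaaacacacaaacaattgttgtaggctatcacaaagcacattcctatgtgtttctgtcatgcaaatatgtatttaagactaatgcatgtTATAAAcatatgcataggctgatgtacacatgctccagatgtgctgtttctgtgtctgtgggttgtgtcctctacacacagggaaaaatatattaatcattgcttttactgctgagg
Col18a1, chr10:77166531-77166780, minus strand: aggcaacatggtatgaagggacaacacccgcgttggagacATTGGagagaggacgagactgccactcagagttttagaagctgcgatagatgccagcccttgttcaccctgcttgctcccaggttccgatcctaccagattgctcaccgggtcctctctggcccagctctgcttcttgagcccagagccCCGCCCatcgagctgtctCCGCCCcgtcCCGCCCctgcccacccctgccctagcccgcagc
The Col3a1 window has 35.2% G and C and 1 match, a TATAAA 117 bases before the start. The Col18a1 window has 62% G and C, with 1 CCAAT and 3 GC box matches, and its last 18 bases lie in the first exon of the gene as the files place it. Over 32851 mouse promoter windows of that length the median was 52.4% G and C, 12.4% held TATAAA, 33.8% CCAAT, 32.7% GGGCGG and 6.75% TGANTCA. A further RefSeq window of Col18a1, chr10:77113706-77113955, has 57.6% G and C and none of the 4 motifs, and 241 of its 250 bases lie in exons as the files place them. Of the other members, the window of Col1a2 also had 62% G and C, with 1 CCAAT and 2 GC box matches, that of Tgfbi had 1 GC box match and that of Sparc had none of the 4 motifs. Exons covered 127 bases of the Col1a2 window, 63 of the Tgfbi window and 238 of the Sparc window. The windows of Col4a1 and Col4a2 lay in exons over all 250 bases, with 74.4% and 73.6% G and C and 1 CCAAT match each, and that of Col4a2 had 2 GC box matches. A match is a run of letters and says nothing here about a factor.

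Col4a1 (chromosome 8, 11198423 to 11312826, minus strand) and Col4a2 (chromosome 8, 11312805 to 11449287, plus strand) encode the most widespread chains of type IV collagen and lie head to head, with start sites 21 bases apart. Their first exons overlap there, and the strandedness of the counting is not given in the sources used here, so reads in the overlap could go to either gene. Col4a1 read 0.204, 0.736 and 0.674 in untreated libraries, 3.13, 1.35 and 0.888 with LPS, 0.425, 0.314 and 0.319 with fatty acid and LPS, and 0.939, 1.18 and 1.07 with TAK242 added. Col4a2 read 0.239, 0.856 and 0.538, then 3.81, 2.23 and 1.78, then 0.636, 0.401 and 0.320, and then 1.70, 2.07 and 1.65, in the same order of groups. The mean of each was highest with LPS and lowest after fatty acid, at levels where the log2(value + 1) scale understates a change.

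Col4a1 rose by 0.80 with LPS (adjusted p = 0.0136) and was lower by a log2 change of -0.96 after fatty acid (adjusted p = 0.0102). Without LPS replicate 1 these changes were 0.47 and -0.64, both still called, and the LPS call was lost without untreated replicate 1 (adjusted p = 0.0571) and with the spread taken from the 6 libraries compared (adjusted p = 0.0613). Col4a2 rose by 1.20 (adjusted p = 0.000332) and was lower by -1.28 after fatty acid (adjusted p = 0.00126). With TAK242, Col4a2 was higher by 0.95 (adjusted p = 0.0289), while the 0.61 of Col4a1 missed the threshold (95% interval 0.082 to 1.14, adjusted p = 0.160) although the groups did not overlap.

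**Figure D2:**
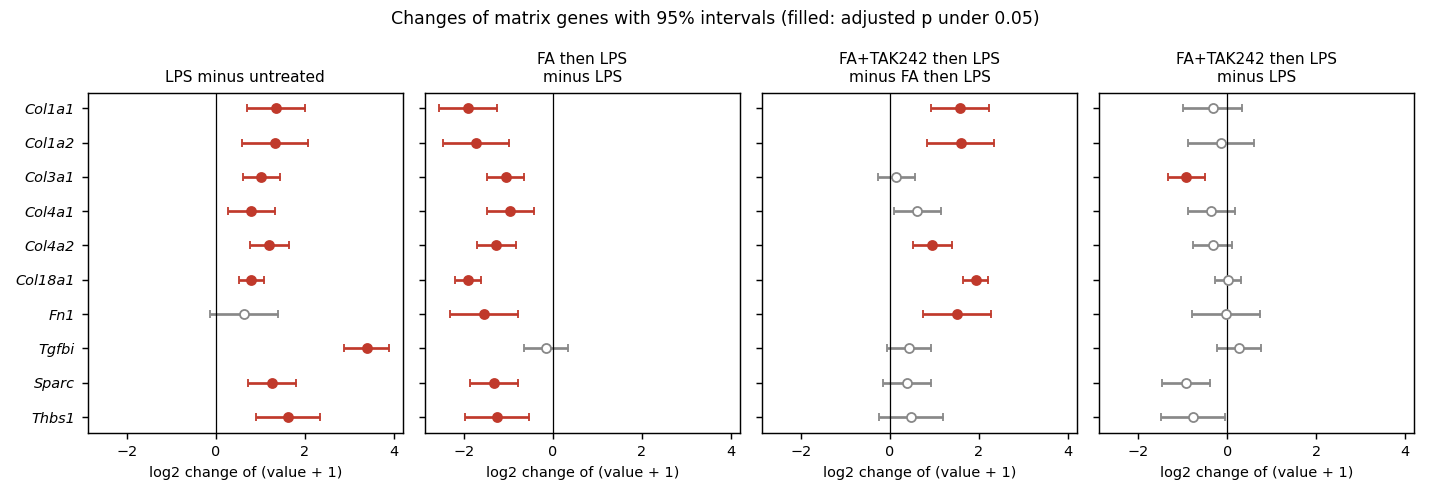
Log2 changes of (deposited value + 1) for each matrix gene in 4 comparisons, with 95% intervals from limma on the horizontal axis; filled points passed an adjusted p under 0.05. Intervals lie to the right of 0 for 9 genes with LPS and to the left for 9 after fatty acid, and the right-hand panel has 1 filled point, Col3a1 at -0.92.

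Of the adhesive glycoproteins, Fn1 (chromosome 1, 71585520 to 71653200, minus strand) encodes fibronectin, which binds integrins, collagen and fibrin. It read 1.79, 3.76 and 2.78 in untreated libraries, 10.5, 3.46 and 2.68 with LPS, 1.06, 0.816 and 1.03 with fatty acid and LPS, and 4.35, 4.73 and 4.78 with TAK242 added. LPS and untreated libraries overlapped, with replicate 1 alone far above the rest, and every fatty acid library was below every other library of the table. The difference of 0.63 with LPS did not pass the test (95% interval -0.13 to 1.40, adjusted p = 0.134). It was 0.13 without LPS replicate 1 (adjusted p = 0.556), 0.95 without LPS replicate 3 (adjusted p = 0.0312) and 0.93 after median-ratio scaling (adjusted p = 0.0466). After fatty acid Fn1 was lower than with LPS alone by a log2 change of -1.54 (adjusted p = 0.00639), -1.04 without LPS replicate 1 (adjusted p = 0.00350). With TAK242 it was higher by 1.52 than with fatty acid and LPS (adjusted p = 0.0376).

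Tgfbi (chromosome 13, 56609603 to 56639339, plus strand) encodes the TGF-beta-induced protein, an adhesion protein that binds collagens and integrins. It read 49.5, 59.0 and 49.8 in untreated libraries, 374, 595 and 791 with LPS, 588, 496 and 435 with fatty acid and LPS, and 630.0, 665 and 735 with TAK242 added. All 9 libraries given LPS were far above all 3 untreated ones, and the 3 stimulated groups lay close together. Mean Tgfbi was 11.1-fold higher with LPS than without, from 52.8 ± 5.43 to 587 ± 209 (log2 change 3.39, standard error 0.22, adjusted p = 2.94e-07), and with fatty acid before LPS it was higher than in untreated cultures by 3.23 (adjusted p = 4.32e-07). Between fatty acid with LPS and LPS alone the difference was -0.16 (95% interval -0.65 to 0.34, adjusted p = 0.612).

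The matricellular genes encode secreted proteins that alter how cells meet the matrix. Sparc (chromosome 11, 55394500 to 55423183, minus strand) encodes a collagen-binding glycoprotein, and it read 3.57, 6.81 and 6.19 in untreated libraries, 21.0, 12.7 and 10.7 with LPS, 5.51, 4.26 and 5.53 with fatty acid and LPS, and 6.502, 7.997 and 6.45 with TAK242 added. As for Col3a1, the LPS libraries were above all others and the remaining groups were close together. Sparc rose by 1.26 with LPS (adjusted p = 0.00105) and was lower by a log2 change of -1.32 after fatty acid (adjusted p = 0.00270). With TAK242 it differed from fatty acid and LPS by 0.39 (adjusted p = 0.370) and from LPS alone by -0.93 (95% interval -1.48 to -0.39, adjusted p = 0.0507).

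Thbs1 (chromosome 2, 118111876 to 118127133, plus strand) encodes thrombospondin 1, which binds CD36 and CD47 and can activate latent TGF-beta. It read 18.9, 28.8 and 31.4 in untreated libraries, 154, 63.6 and 55.7 with LPS, 40.6, 28.6 and 33.6 with fatty acid and LPS, and 47.3, 48.6 and 46.9 with TAK242 added. LPS libraries were the highest, TAK242 libraries lay between LPS and fatty acid libraries without touching either, and fatty acid libraries overlapped untreated ones. Thbs1 rose by 1.63 with LPS (adjusted p = 0.00123) and was lower by a log2 change of -1.25 after fatty acid (adjusted p = 0.0130). Without LPS replicate 1 these were 1.18 and -0.79, both called, and the second missed the threshold with the spread of the 6 libraries compared (adjusted p = 0.0564). Exons of Thbs1, Fn1, Col3a1 and Col4a2 overlap those of the gene models Gm29233, Apol7d, Gm47302 and Gm15419, so part of their reads could have been assigned to either gene.

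The question of the first comparison was how LPS changed macrophages of chow donors. The members' median log2 change was 1.23, whereas over all genes tested the median was -0.31, and after median-ratio scaling, which brought the latter to 0.015, all 10 members were called higher. Without LPS replicate 1 the same number of members, 9, was called. Beside the 13.8% of all genes called higher and 47.9% called lower, genes that build and process collagen moved both ways: of 19 tested, 9 rose and 3 fell. Lox, the lysyl oxidase that crosslinks collagen, rose from 0.666 to 47.2 (4.69, adjusted p = 1.34e-06), Bmp1, a protease that trims procollagens, from 0.452 to 10.6 (2.94, adjusted p = 9.47e-07), and the prolyl hydroxylase gene P4ha1 from 38.6 to 76.0 (0.96, adjusted p = 7.42e-07). Among 16 other matrix glycoproteins and proteoglycans 11 rose and 2 fell. Matn2, the gene of the matrix adaptor matrilin 2, fell from 1.40 to 0.0811 (-1.15, adjusted p = 8.14e-08). Agrn, the gene of the heparan sulfate proteoglycan agrin, went from 0.744 to 5.42 (1.88, adjusted p = 1.69e-07), and Spp1, which encodes osteopontin, fell from 1169 to 285.5 (-2.04, adjusted p = 9.81e-08).

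Of 15 matrix receptors tested with LPS, 6 rose and 5 fell, beside 13.8% of all genes called higher and 47.9% lower. After median-ratio scaling 7 rose and 5 fell. Hmmr, the gene of a hyaluronan receptor that is also a spindle protein, fell from 20.1 to 0.694 (-3.63, adjusted p = 1.01e-08). The fibronectin receptor chain Itga5 rose from 22.9 to 92.9 (1.96, adjusted p = 3.51e-06) and the syndecan gene Sdc1 from 0.780 to 11.4 (2.78, adjusted p = 6.41e-07), while the laminin receptor chain Itga6 fell from 41.1 to 6.91 (-2.41, adjusted p = 8.39e-09). The TGF-beta list had 5 of 15 higher and 5 lower, to be read beside the same shares, and 7 higher and 3 lower after median-ratio scaling. Its type I and type II receptor genes Tgfbr1 (16.7 to 5.47, -1.45, adjusted p = 3.21e-07) and Tgfbr2 (6.97 to 2.68, -1.11, adjusted p = 1.66e-05) fell. The co-receptor gene Eng (7.74 to 21.8, 1.37, adjusted p = 1.38e-05) and Skil, which encodes a repressor of SMAD signalling (1.59 to 4.62, 1.101, adjusted p = 2.10e-05), rose.

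Fatty acid before LPS was set against LPS alone to ask what the pretreatment changed in the response. The members' median was -1.30, the median of all genes was 0.057, and the number of members called stayed at 9 whichever of the 6 libraries was left out. The collagen-processing list went the same way, with 11 of 19 lower and 1 higher. It included P4hb, a prolyl hydroxylase subunit and disulfide isomerase (275.7 to 165.6, -0.73, adjusted p = 0.000727), the collagen chaperone gene Serpinh1 (3.58 to 1.39, -0.94, adjusted p = 0.000968) and the collagen galactosyltransferase gene Colgalt1 (33.4 to 18.6, -0.81, adjusted p = 0.000990). Of the other glycoproteins 9 of 16 were lower and 1 was higher. Agrn went from 5.42 to 2.54 (-0.86, adjusted p = 0.000691), the IGF-binding protein gene Igfbp7 from 19.9 to 7.39 (-1.31, adjusted p = 0.000764), the elastic fibre gene Emilin1 from 7.79 to 3.36 (-0.99, adjusted p = 0.00194) and Tnc, which encodes tenascin C, from 2.32 to 0.407 (-1.17, adjusted p = 0.00242). Of the receptors 3 of 15 were higher and 4 lower, near the shares over all genes (21.8% higher and 15.3% lower). Itga6 stood at 6.91 with LPS and at 13.2 after fatty acid (0.84, adjusted p = 0.000441), Sdc1 at 11.4 and 3.81 (-1.35, adjusted p = 0.00109), and Itgb1, the shared chain of collagen and fibronectin receptors, at 175.4 and 109.1 (-0.67, adjusted p = 0.00189). The TGF-beta list, with 4 of 15 higher and 2 lower, was also near those shares. Ltbp3, which encodes a binding protein of latent TGF-beta, read 5.91 with LPS and 2.74 after fatty acid (-0.89, adjusted p = 0.000756), and Tgfbr2 read 2.68 and 4.88 (0.68, adjusted p = 0.00243).

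The comparison of fatty acid and TAK242 with fatty acid lacking TAK242, all before LPS, asks which differences the TLR4 inhibitor altered. Members called higher were Col1a1, Col1a2, Col4a2, Col18a1 and Fn1, the members' median was 0.78 and that of all genes was -0.00093. Of these calls, that of Col18a1 held in all 6 fits that lacked 1 library (adjusted p from 0.000503 to 0.00235), that of Col1a1 in 2 of 6 fits and that of Col4a2 in 1 of 6. Those of Col1a2 and Fn1 held in none, although their log2 changes stayed between 1.502 and 1.65 and between 1.46 and 1.55. In these fits 63 to 305 genes were called in all, against 491 with all libraries. Without the filter on low values Col18a1 was the member called, and Col4a2 was lost with Col1a1, Col1a2 and Fn1.

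The other matrix lists are set beside the 3.01% of all genes called higher and 1.68% called lower. In collagen processing 2 of 19 were higher and none lower, P4hb (165.6 to 244.2, 0.55, adjusted p = 0.0178) and Colgalt1 (18.6 to 27.0, 0.51, adjusted p = 0.0415). Of the other glycoproteins 4 of 16 were higher: Agrn (2.54 to 5.99, 0.98, adjusted p = 0.00254), the elastic fibre genes Emilin1 and Efemp2, and the laminin chain gene Lamc1. Sdc1 was the 1 of 15 receptors called (3.81 to 8.08, 0.88, adjusted p = 0.0386), the next by adjusted p being Itga5 (52.2 to 82.7, 0.65, adjusted p = 0.0650), and Ltbp3 (2.74 to 6.56, 1.02, adjusted p = 0.00254) and the co-receptor gene Eng (15.3 to 27.7, 0.82, adjusted p = 0.0176) were the 2 of 15 called in the TGF-beta list. Lox stood at 8.07 with fatty acid and LPS and at 21.2 with TAK242 (1.25, adjusted p = 0.0876).

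Against LPS alone, the cultures given fatty acid with TAK242 and LPS had 1 member called, Col3a1, lower, where 1.84% of all genes were called lower and 4.05% higher. Its call was lost in 5 of 6 fits with a library left out, and without the filter (adjusted p = 0.0746). Sparc passed when LPS replicate 3 was left out (adjusted p = 0.0189). Thbs1 differed by -0.77 (95% interval -1.49 to -0.049, adjusted p = 0.146), with groups that did not overlap. Intervals on the log2 scale were -0.98 to 0.33 for Col1a1, -0.89 to 0.61 for Col1a2, -0.79 to 0.74 for Fn1 and -0.76 to 0.12 for Col4a2, and a p above the threshold does not show that the groups were alike. The comparisons within the fatty acid table share libraries, so their values are given side by side and were not correlated.

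With fatty acid before LPS compared with untreated cultures, Tgfbi was higher and Col18a1 and Fn1 were lower, where 15.2% of all genes were called higher and 44.9% lower. The median over all genes was -0.26 and that of the members -0.12. Fn1 was lower by a log2 change of -0.91 (adjusted p = 0.0410), a call that was lost in 5 of 6 fits with a library left out and after median-ratio scaling (adjusted p = 0.120). The remaining members lay between -0.55 for Col1a1 (adjusted p = 0.130) and 0.38 for Thbs1 (adjusted p = 0.332), and none of these passed.

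Members were compared with one another inside each library, as a ratio of deposited values that cannot be shifted by a library's scaling. The ratio of Col3a1 to Col1a1 was 2.04 ± 0.549 in untreated libraries, 1.35 ± 0.349 with LPS, 4.15 ± 0.441 with fatty acid and LPS, and 0.791 ± 0.0445 with TAK242 added (SD, n = 3). The fatty acid libraries, 3.77 to 4.63, were above every other library and the TAK242 libraries, 0.742 to 0.830, below every other one. Col1a2 to Col1a1, the chains of a single protein, was also highest after fatty acid, at 2.31 ± 0.135 against 1.43 ± 0.134 with LPS and 1.67 ± 0.0645 with TAK242, and the untreated libraries at 1.09 to 1.998 did not reach it. Sparc to Col3a1 varied little, with group means of 1.93, 2.11, 1.88 and 2.24 in the same order. These ratios are descriptions, and the differences between groups were not tested.

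**Figure D3:**
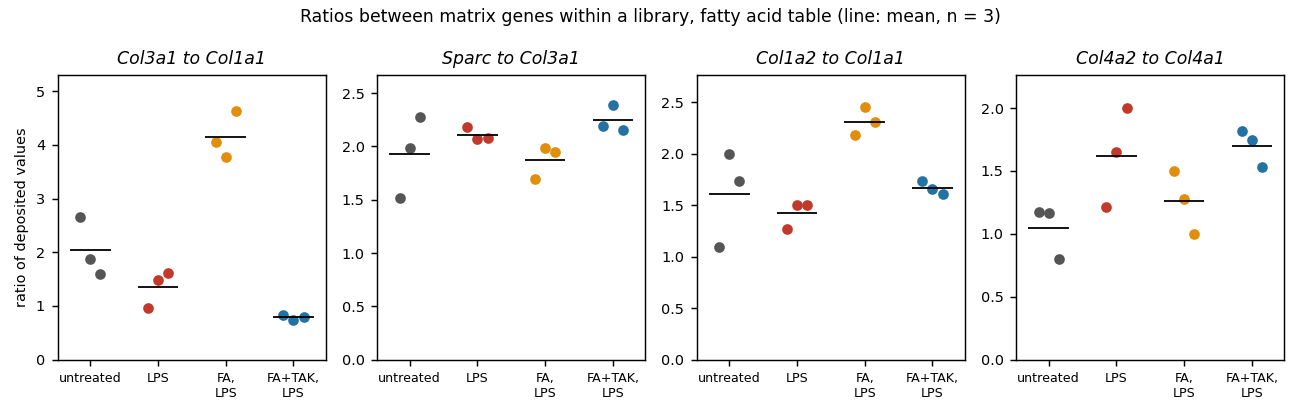
Ratio of the deposited values of 2 matrix genes within each library of the fatty acid table (vertical axes, linear, from 0); points are libraries and lines are group means (n = 3). Col3a1 to Col1a1 lies between 3.77 and 4.63 after fatty acid and between 0.742 and 0.830 with TAK242, and Sparc to Col3a1 stays between 1.52 and 2.39 in all 12 libraries.

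The genes most like each member over the 12 libraries, by Pearson correlation of log2(value + 1), are a description in which libraries of 4 groups share treatment and LPS replicate 1. For Col1a1 they were Col1a2 (0.98), Nomo1, Col4a2, Tnc and Edem2, and those of Col4a2 included Hyou1 (0.98), Atf6b, Col1a1 and Tmem63b, of which Hyou1, Edem2 and Atf6b belong to the endoplasmic reticulum. Sparc was nearest to the matrix genes Col5a2 (0.98), Postn and Col3a1, and then to Polr3d and Sri, while Col3a1 was nearest to Sri (0.98), Sparc, BC001981 and the cytokine genes Csf3 and Ccl3. Col4a1 was nearest to Tnc (0.98), Dock5, Myh9, Me1 and Fbn1. Col1a2, after Col1a1 and Col4a2, was nearest to Plec (0.96), Dda1 and Gaa, and Fn1 to Plec (0.97), Gaa, Edem2, Slc27a4 and Pabpc1.

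Col18a1 had Zfp598 (0.97), Uchl1, Dda1, Cdc42bpg and Pdia3 as its nearest genes, and Thbs1 had Alas1 (0.97), Cav1, Dhx40, Slc39a4 and the gelatinase gene Mmp9. Tgfbi was nearest to the entry named Mir702 (0.996), Il23r, Lgals3bp, the scavenger receptor gene Marco, and Perm1. Its correlations with the other 9 members ran from 0.067 for Fn1 to 0.53 for Thbs1.

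Stromal cells of the marrow make collagens, and 24 stromal markers were therefore read, of which 23 were in the tables. Their summed level was 40.8 to 52.2 in untreated libraries, 76.0 to 116.4 with LPS, 44.9 to 51.9 with fatty acid and LPS, and 53.9 to 64.3 with TAK242 added, and the highest value was that of LPS replicate 1. The markers in the sum did not move alike. Pdpn read 3.04 to 4.18 in untreated libraries and 17.2 to 20.9 with LPS, and Igfbp7 read 2.51 to 3.97 and 16.4 to 22.0. Acta2, at 13.4 to 19.5 and 12.8 to 19.2, and Tagln, at 8.60 to 11.5 and 7.36 to 11.2, overlapped between those groups. Of the 10 markers that could be tested, 7 were higher and none lower with LPS, beside 13.8% of all genes called higher and 47.9% lower. Fbn1 and Dcn reached 1 only in libraries given LPS, so the filter admitted them through groups where they were high. The counts of markers called include them. After fatty acid 7 were lower and none higher, beside 15.3% lower and 21.8% higher. With TAK242 1 was higher, beside 3.01%, and 5 were lower in the TAK242 cultures than with LPS alone, beside 1.84%. Pdgfra, Pdgfrb, Thy1, Cxcl12, Lepr, Lum, Twist1, Prrx1, Col5a1, Col6a3, Fap, Loxl1 and Cnn1 missed the filter and are not among the 10. With LPS and after fatty acid the tested markers moved mostly as the members did, at median log2 changes of 0.72 and -0.79. With TAK242 their median was 0.22, where that of the members was 0.78. In the TAK242 cultures against LPS alone it was -0.63, where that of the members was -0.33. The part of these markers' cells in the members' changes was not tested. In bulk libraries fewer cells of a type and less RNA per cell cannot be told apart. Some listed markers, Col5a1, Col5a2, Col6a3, Postn and Igfbp7, are matrix genes themselves.

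Listed stromal markers differed in level in the fatty acid table. Pdgfra, the receptor that marks marrow fibroblasts, reached 0.240 at most, in LPS replicate 1. Thy1 was listed at 0 in 8 of 12 libraries and reached 0.0287, Lum was listed at 0 in 11, Twist1 in 9 and Lepr in 5, and Cxcl12 did not exceed 0.0776. Pdgfrb, a receptor of fibroblasts and pericytes, read 0.0580, 0.146 and 0.0828 in untreated libraries, 1.30, 0.560 and 0.261 with LPS, 0.0427, 0.0948 and 0.0931 with fatty acid and LPS, and 0.199, 0.220 and 0.187 with TAK242 added. Col5a1, a fibrillar collagen gene, read 0.211, 0.601 and 0.438, then 3.07, 1.12 and 0.776, then 0.239, 0.167 and 0.216, and then 0.879, 0.996 and 0.861. Like the members other than Tgfbi, both had their highest library with LPS, and both read lower after fatty acid and LPS than in any LPS library. Neither reached the filter, so neither was tested. Dcn, which encodes the proteoglycan decorin, averaged 0.0104 in untreated libraries, 0.527 with LPS, 1.08 with fatty acid and LPS and 1.08 with TAK242, and its difference between fatty acid with LPS and LPS alone was 0.48 (adjusted p = 0.0535). The markers with higher values were Acta2 (7.61 to 19.5), Tagln (5.93 to 11.5), Pdpn (3.04 to 20.9), Igfbp7 (2.51 to 22.0), Postn (2.71 to 16.3) and Col5a2 (2.40 to 10.2), of which Pdpn is also known in LPS-stimulated macrophages.

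**Figure D4:**
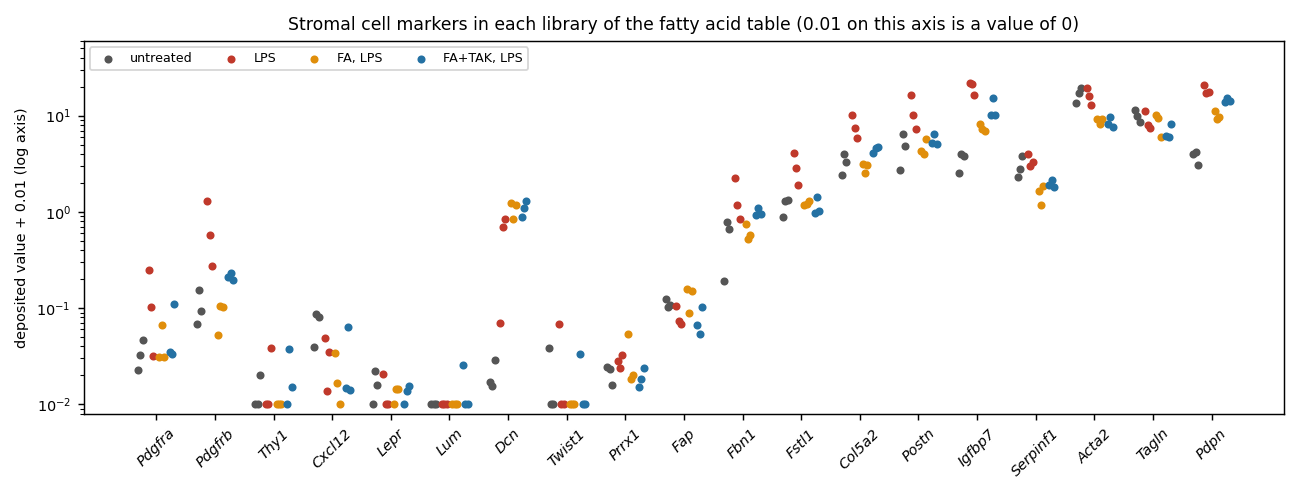
Deposited value plus 0.01 on a log axis for the stromal markers plotted, in each library of the fatty acid table; points are libraries, coloured by group. Pdgfra, Thy1, Cxcl12, Lepr, Lum, Twist1 and Prrx1 lie at or under 0.240 in all 12 libraries, whereas Postn, Col5a2, Igfbp7, Acta2, Tagln and Pdpn lie above 2.

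Osteoblast markers summed to 0.851 at most, endothelial markers to 11.8 to 14.4 in untreated libraries and 2.10 to 4.79 in the others, and lymphocyte markers to at most 2.59. Neutrophil markers summed to 35.4 to 52.2 in untreated libraries, 120.1 to 383.9 with LPS, 79.8 to 90.3 with fatty acid and LPS, and 65.3 to 88.9 with TAK242 added, and their part in the members' changes was not tested.

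In the Western diet table the fibrillar collagens and Sparc had low values, and those of all 6 libraries of Western diet donors lay above those of all 3 chow libraries. Over all genes tested, 11.4% had no overlap between these 6 and 3 libraries, in either direction. Col1a1 read 0.0397, 0.109 and 0.237 in chow libraries, 0.784, 0.549 and 0.803 in those labelled Western diet and 0.834, 0.479 and 0.714 in those labelled Western diet with LPS. Col3a1 read 0.0325, 0.117 and 0.0718, then 0.946, 0.563 and 0.738, and then 0.200, 0.411 and 0.481. Fewer than 3 libraries reached 1 for these genes and for Col4a1 and Col4a2, so none of the 4 was tested. The 11.4% therefore does not cover them, and the share among genes with values this low was not computed.

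Col1a2 read 0.0337, 0.125 and 0.274 in chow libraries, 1.68, 1.19 and 1.22 with the Western diet label and 0.787, 0.406 and 0.485 with the Western diet and LPS label. Sparc read 0.101, 0.317 and 0.576, then 2.16, 1.79 and 1.92, and then 1.09, 0.718 and 0.928. For these genes the 3 groups did not overlap, with chow lowest and the Western diet label highest. Between chow and the Western diet label 29.2% of all genes tested had no overlap. The share with all 3 groups apart, or with the Western diet labels with and without LPS apart, was not computed. The order of those labels therefore has no background to be read against. Sparc was higher with the Western diet label than in chow by 1.16 (adjusted p = 0.0471), the 1 of 6 tested members called. Over 10331 genes 0.0678% were called higher and 0.165% lower. No chow library reached 1 for Col1a2 or Sparc, so the filter admitted both through the Western diet libraries, where they were high. The Sparc call held in 1 of 6 fits with a library left out. It was lost with median-ratio scaling (adjusted p = 0.0567) and with no filter. Leaving out the 4 libraries whose Ccl5 goes against the label kept 1 library with the Western diet label, which could not decide the call. Col1a2 differed by 1.05 (adjusted p = 0.0555).

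Type IV collagen did not follow this order. Col4a1 read 0.439, 0.494 and 0.371 in chow libraries, 0.246, 0.236 and 0.180 with the Western diet label and 0.200, 0.0558 and 0.0593 with the Western diet and LPS label. All Western diet libraries were thus below all chow libraries, but the 11.4% covers tested genes only, and Col4a1 was not among them. Col4a2 read 1.14, 0.569 and 0.864, then 0.993, 0.279 and 1.48, and then 0.178, 0.109 and 0.685, with overlap between chow and both other groups.

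Col18a1, Fn1, Tgfbi and Thbs1 differed most among libraries that share a label. Col18a1 read 6.58, 7.65 and 7.32 in chow libraries, 0.691, 7.72 and 0.396 with the Western diet label, and 0.967, 1.16 and 0.769 with the Western diet and LPS label. Thbs1 read 1.60, 1.02 and 1.28, then 60.7, 1.43 and 81.7, and then 63.6, 52.9 and 23.2. The library labelled Western diet replicate 2 was near or inside the chow range for both genes, whereas the other 5 libraries of Western diet donors had low Col18a1 and high Thbs1, whatever their Ccl5. Fn1 read 2.04, 6.86 and 3.33 in chow libraries, then 0.661, 3.70 and 0.946, and then 18.05, 15.6 and 1.79. Tgfbi read 260.7, 357 and 242, then 287, 136 and 282, and then 39.8, 36.9 and 529. The libraries labelled Western diet with LPS replicates 1 and 2, where Ccl5 read 0.463 and 10.5, thus had the highest Fn1 and the lowest Tgfbi of the table. Endothelial markers summed to 15.5 and 15.7 in those libraries and to 1.71 to 4.87 in the other 7. The higher sums rested on few genes, since 3 and 2 of the 12 markers read at least 1. Vwf stood at 9.56 and 8.40 and Stab2 at 2.56 and 5.36. Cdh5, at 0.0566 and 0.0454, was at its lowest of the table there, and Tek, Emcn and Cldn5 were at 0. The part of these markers' cells in the Fn1 and Tgfbi values was not tested.

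No member was called between the Western diet labels with and without LPS by limma (0 of 6 tested, where 0.678% of genes were called higher and 0.281% lower), and over all genes 1779 had an unadjusted p under 0.05. For Fn1 the difference was 1.95 (95% interval 0.19 to 3.72, adjusted p = 0.255) and for Tgfbi -1.26 (95% interval -3.38 to 0.87, adjusted p = 0.469).

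**Figure D5:**
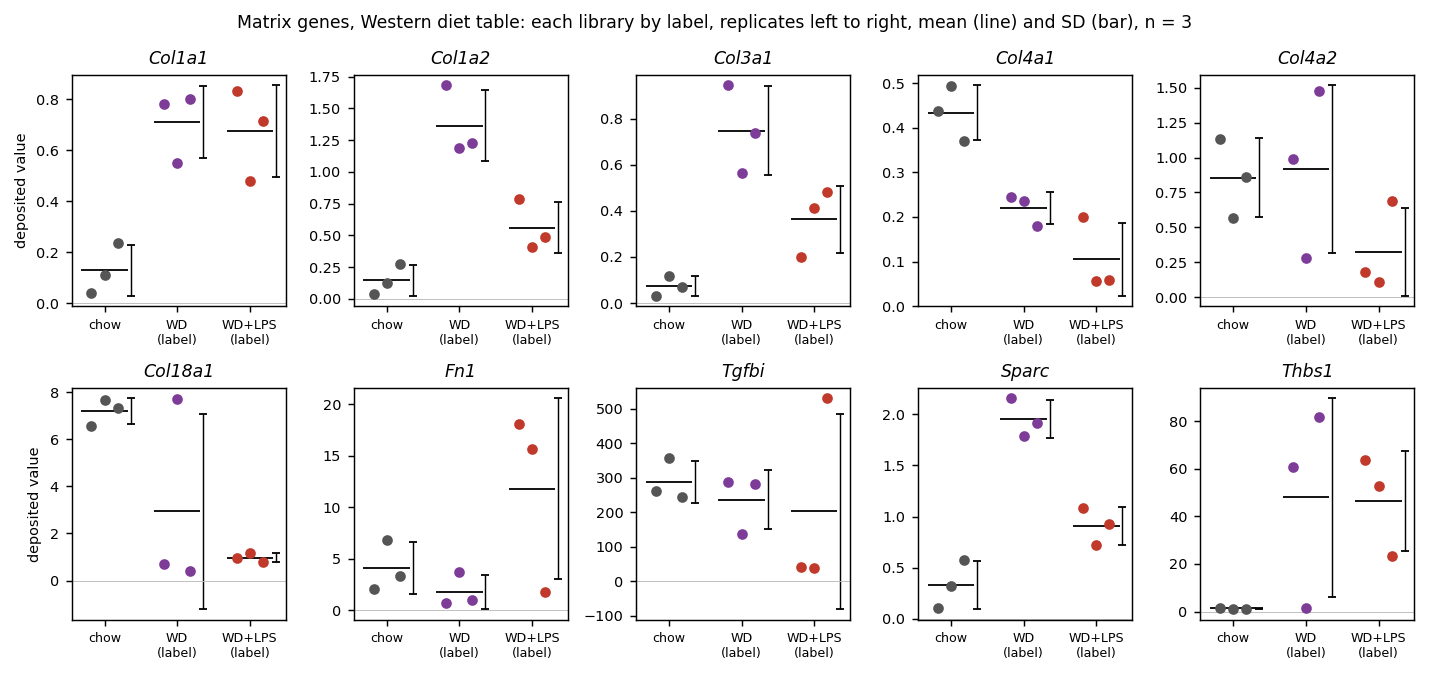
Deposited values of the 10 matrix genes in each library of the Western diet table by label (vertical axes, linear); points are libraries with replicates from left to right, lines are means and bars the SD (n = 3). Col1a1, Col1a2, Col3a1 and Sparc are higher in all 6 libraries of Western diet donors than in the 3 chow libraries, and Col18a1 in Western diet replicate 2, at 7.72, lies beside the chow libraries.

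Stromal markers in this table summed to 6.15 to 9.41 in chow libraries, 20.3 to 69.6 with the Western diet label and 10.5 to 20.6 with the Western diet and LPS label, and their part in the collagen values was not tested. Pdpn alone read 41.8 and 47.8 in the libraries labelled Western diet replicates 1 and 3, and 2.60 in replicate 2. Pdgfra reached 0.00672 and Thy1 0.0114 there, and Dcn was listed at 0 in 6 of 9 libraries and reached 3.12. Untreated chow cultures differed between the tables, with mean Col1a1 at 1.47 ± 0.510 in the fatty acid table and 0.129 ± 0.1003 in the Western diet table, Thbs1 at 26.3 ± 6.62 and 1.30 ± 0.288, and Tgfbi at 52.8 ± 5.43 and 287 ± 61.8 (SD, n = 3). A normalization common to both tables is not stated, and this difference was not tested.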

How the data were processed

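RNA of 21 libraries was measured. The submitters' processing notes name HISAT2 2.0.5, Trim Galore 0.4.1, FastQC 0.11.5 and CASAVA 1.8.2, with no role or order, and likewise the builds mm9 and mm10. The quantification step and the unit are not given in the sources used here, so the authors' values are called deposited values, and their normalization is unknown. Coordinates equal those of GENCODE M21 (GRCm38) for every member but Tgfbi and are the files' own. Entries without a readable position, and those of a gene listed more than once with differing values, were left out. They numbered 36 in the fatty acid table and 35 in the Western diet table. No read counts entered the fits, so the depth behind a value is unknown.

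Each table was fitted on its own with limma 3.58.1 (R 4.3.3) with a mean-variance trend on log2(value + 1), over the 10476 and 10331 genes that reached 1 in no fewer than 3 libraries. All libraries of a table shared the estimate of spread, tests were two-sided, and Benjamini-Hochberg adjustment ran over all genes tested, with 0.05 as the threshold. The log2(value + 1) scale understates changes of low values. The members, the marker and pathway lists, and the tests were chosen with earlier results of these data known. Of each pathway list described in a comparison, the 2 to 4 genes with the smallest adjusted p are named, and for each member the 5 most correlated genes, of which 1 is not reported here. The alternatives were no filter, a minimum of 5, a pseudocount of 0.1, the 6 libraries compared alone, median-ratio scaling, each library left out, the replicate block, and the omission of the 4 Western diet libraries whose Ccl5 goes against the label. The fit was tested on simulated data. Replicate numbers did not pair the samples. Figures were drawn with matplotlib 3.10.9 and tables with pandas 2.3.3 (Python 3.11.15).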

Additional observations from a re-analysis of the deposited data

How the results depend on the processing

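Of 726 values recomputed for members, 624 kept their direction and their side of the threshold, 55 lost a call, 19 gained one and 28 changed sign, and the cause was not tested. The number of members called when 1 library was left out ranged from 8 to 10 for LPS against untreated, was 9 in every case for fatty acid before LPS against LPS, and ranged from 1 to 3 for TAK242 against fatty acid, 0 to 2 for TAK242 against LPS, 2 to 4 for fatty acid against untreated, 0 to 4 for Western diet against chow and 0 to 3 for the LPS label in Western diet. A minimum of 5, which tests fewer members, left 5 called for fatty acid against LPS, 2 for TAK242 against fatty acid, 2 for TAK242 against LPS and 0 for Western diet. With no filter the last 3 of these gave 1, 0 and 0. With the 6 libraries alone TAK242 against LPS and Western diet gave 0 each, and with median-ratio scaling 2 and 0. Western diet also gave 0 with a pseudocount of 0.1. Without the 4 libraries each Western diet label kept 1 library, with the spread of the chow libraries, so no count is given.

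The replicate block left 3 members called for TAK242 against fatty acid, losing Col1a2 and Fn1 (adjusted p = 0.0522 and 0.0607), and it ended no member's call in the LPS and fatty acid responses. Same-numbered libraries did not deviate together in every pair, so the numbers are not taken as pairs.

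Differences that were not called changed sign in these cases. With 1 library left out, TAK242 against LPS ranged from -0.61 to 0.089 for Col1a1, -0.40 to 0.22 for Col1a2, -0.030 to 0.097 for Col18a1, -0.35 to 0.47 for Fn1 and -0.023 to 0.52 for Tgfbi. It was -0.049 for Col18a1 with scaling and 0.0016 for Fn1 with a pseudocount of 0.1. Fatty acid against untreated ranged from -0.13 to 0.084 for Col3a1, -0.22 to 0.067 for Col4a2 and -0.30 to 0.082 for Sparc, and scaling gave 0.20, 0.028 and 0.20. Tgfbi ranged from -0.45 to 0.092 for fatty acid against LPS and from -0.52 to 0.010 for Western diet, which scaling put at 0.071. The LPS label ranged from -0.97 to 0.35 for Col18a1 and -0.70 to 1.84 for Thbs1. Without the 4 libraries, which left 1 library of each Western diet label, Western diet gave 0.095 for Col18a1 and 0.0012 for Fn1. The LPS label then gave -0.75 for Fn1 and 1.95 for Tgfbi.

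Over all genes, calls for TAK242 against fatty acid numbered 491, 276 with no filter, 770 with scaling and 1110 with the 6 libraries alone, and for TAK242 against LPS 617, 88, 1011 and 2. For LPS against untreated they numbered 6463, and 4303 with a minimum of 5. For Western diet against chow they numbered 24, 41 with no filter and 12 with a minimum of 5. For the LPS label they numbered 99, 206 with scaling, 58 with a minimum of 5, 2 with the 6 libraries alone and 0 with the block.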
